A study of Mus musculus with 8 samples.

Results

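The oligodendrocyte lineage and its myelin were examined through 44 genes in the hippocampal polyA-RNA-sequencing of 4 hpCTL and 4 hp708 mice. The genes were chosen by name as markers of myelin, of the oligodendrocytes that make it and of their precursors. All 44 were found among the 40659 genes of the count table, and all 44 were among the 17252 genes that passed a filter on low counts. They fell into 15 genes of compact and structural myelin, 5 of myelin lipids and gap junctions, 5 transcription factors, 14 iron, metabolic, signalling and cytoskeletal genes rich in oligodendrocytes, and 5 genes of precursors and newly formed oligodendrocytes. Male C57BL/6JRj mice received a recombinant rAAV by stereotactic surgery into the dorsal and ventral hippocampus at 7 to 8 weeks, and whole hippocampi were taken 4 weeks later (the labels give the tissue as 12 to 13 weeks old). In hp708 mice the virus carried EGFP followed by the miR-708-5p hairpin, and in hpCTL mice the same construct carried a control hairpin. Both groups had thus undergone surgery and viral expression. The construct was driven by the human synapsin (hSYN) promoter, which is active in neurons. Whole tissue was sequenced, so that fewer oligodendrocytes and less RNA per oligodendrocyte cannot be told apart.

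Oligodendrocytes wrap axons in a lipid-rich membrane that insulates them and speeds conduction. They arise from dividing precursors that carry the receptor Pdgfra and the proteoglycan Cspg4, pass through a short-lived stage marked by Gpr17, Bcas1 and Enpp6, and then switch on the myelin genes under the transcription factors Sox10 and Myrf. In the hippocampus, myelin lies mainly in the fibre tracts at its border, the alveus and the fimbria, and on the axons of interneurons.

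The overexpressed microRNA and the stretches of oligodendrocyte genes that match its seed are shown first, since canonical targeting by a microRNA rests on such a match. The mature sequence is from RefSeq (build GRCm38.p6) and its seed, bases 2 to 8, is in capitals. The matches are given as DNA on the strand of the gene from the GRCm39 genome, with the bases opposite the seed and a following A in capitals. An 8mer pairs with bases 2 to 8 and is followed by an A, a 7mer-m8 lacks this A, and a 7mer-A1 has it but lacks the pair at base 8. Tmem88b and Gsn are the only members with the longest class of match (8mer), and Cnp and Mal had the most positions of the microRNA paired, counted without gaps, of the myelin genes (14 and 13).
mmu-miR-708-5p: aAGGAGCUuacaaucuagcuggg
Tmem88b, chr4:155868059-155868080, minus strand: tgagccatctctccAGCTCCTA
Gsn, chr2:35176067-35176088, plus strand: agcagatggcttcaAGCTCCTA
Cnp, chr11:100472465-100472486, plus strand: gaatctgggatgtatGCTCCTA
Mal, chr2:127476402-127476423, minus strand: cacagtggaagatgAGCTCCTt
Each lies in the longest annotated 3'UTR of its gene, and the values of these genes are given below with those of their groups.

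The table held raw read counts per gene, with 22606824 to 28462428 counts per library. Counts were expressed as CPM, scaled to the size of each library, and the groups were compared with edgeR's quasi-likelihood test in 2 fits, one with 3 surrogate variables (estimates of unknown variation between libraries), the number given in the methods of the study, and one without. For the test itself the methods name the likelihood ratio test and a figure legend the quasi-likelihood model, and the counts of both are given. Mir708, the precursor gene of the microRNA, had 0 counts in each of the 8 libraries, and a polyA library is not expected to hold it, so that overexpression was not checked here. The library labelled hp708 replicate 1 comes from an animal that another table of the study lists as hpCTL. The library labelled hp708 replicate 2 stood apart in these genes. The groups of genes and the genes given in every mouse are therefore also described without each of them, in fits with 3 surrogate variables estimated again unless stated otherwise.

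No oligodendrocyte gene passed the test for a difference between hp708 and hpCTL. Of the 44 genes, 0 passed a false discovery rate (FDR, Benjamini-Hochberg over all 17252 genes) of 0.05 in edgeR's quasi-likelihood test when 3 surrogate variables were included, against 1 of all genes tested (0.0058%). The lowest FDR among the 44 was 0.712. The likelihood ratio test with the same surrogate variables called 127 of all genes (0.736%) and again 0 of the 44, whose lowest FDR was 0.998. An unadjusted p-value below 0.05 was reached by 0 of the 44, against 7.7% of all genes. CPM values of the groups overlapped for each of the 44 genes, whereas they did not overlap for 1.51% of all genes. With DESeq2 and 3 surrogate variables 0 of the 44 passed an FDR of 0.05 and 0 had an unadjusted p-value below 0.05. The fitted log2 fold changes (hp708 against hpCTL) ran from -0.35 to 0.13 with a median of 0.02, and 28 of the 44 lay above 0, as did 46.8% of all genes, whose median was -0.01. Without surrogate variables the median was 0.13 and 41 of 44 lay above 0, against 47.1% and a median of -0.01 for all genes, and again 0 passed an FDR of 0.05 (lowest 0.999).

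These fold changes depended on single libraries of both groups. Without hp708 replicate 2, and without surrogate variables, the median of the 44 genes was -0.05, and 16 of them lay above 0 against 45.6% of all genes. With 3 surrogate variables estimated again it was 0.03 without that library, and 30 of 44 lay above 0 (46.1% of all genes). Without the library labelled hp708 replicate 1, the fit with 3 surrogate variables gave a median of 0.27, with 41 of 44 genes above 0 (48.7% of all genes). In that fit 21 of the 44 had an unadjusted p-value below 0.05, all higher in hp708, against 5.44% of all genes in that direction, and 0 passed an FDR of 0.05 (lowest 0.108). Without surrogate variables and without that library 1 of the 44 had such a p-value, against 1.37%. Other libraries moved the fit with 3 surrogate variables as well. Without hpCTL replicate 2, 8 of the 44 lay above 0 with a median of -0.08, against 46.2% of all genes, and without hp708 replicate 4, 17 of the 44 did with a median of -0.01, against 48.2%. Without hpCTL replicate 1 the median was 0.11, and 9 of the 44 had an unadjusted p-value below 0.05, all higher in hp708, against 3.54% of all genes in that direction, with 0 past an FDR of 0.05 (lowest 0.266). Without surrogate variables 38 to 42 of the 44 lay above 0 when any library other than hp708 replicate 2 was left out. When genes were kept only with at least 10 counts in every library, the same 44 genes had a median of 0.25, and 7 had an unadjusted p-value below 0.05, all higher in hp708, against 2.47% of all genes. With 3 surrogate variables and all libraries, the 95% interval of each of the 44 genes included 0. Its width differed between genes. On the log2 scale the narrowest interval was that of Sox10 (-0.09 to 0.14) and the widest that of Enpp6 (-0.43 to 0.60).

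**Figure D1:**
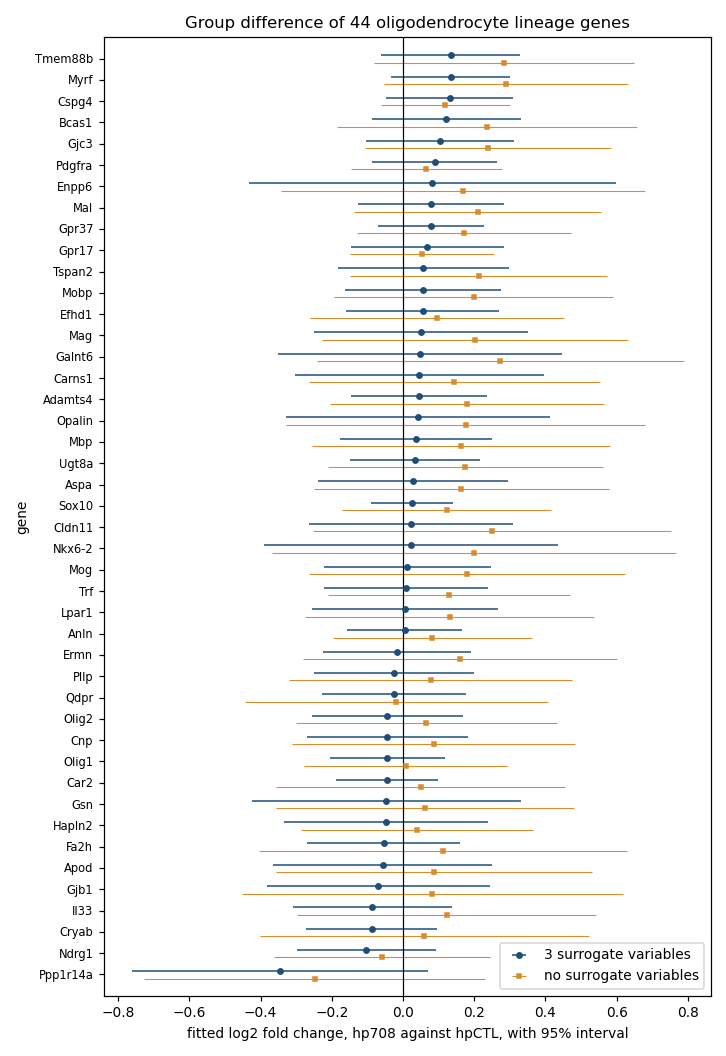
Fitted log2 fold change of hp708 against hpCTL (horizontal axis) for each of the 44 genes (vertical axis), with 95% intervals, in the fit with 3 surrogate variables (blue circles) and without (orange squares). All intervals of both fits include 0, the squares lie above 0 for 41 genes and the circles for 28, and Ppp1r14a has the lowest value at -0.35.

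Among the 15 genes of compact and structural myelin the fitted log2 fold changes were above 0 for 10 and below 0 for 5, with a median of 0.04, and without surrogate variables they were above 0 for 14 with a median of 0.18. None passed the FDR threshold in either fit. With the library labelled hp708 replicate 1 left out, 14 of the 15 were above 0 with a median of 0.35, and 12 had an unadjusted p-value below 0.05, all higher in hp708 (5.44% of all genes), with a lowest FDR of 0.117. Without hp708 replicate 2 instead, 11 were above 0 with a median of 0.04, and without surrogate variables as well 7 were, with a median of -0.02. Mbp, the basic protein that holds the cytoplasmic faces of myelin together, had the highest level per length of all 44 genes, with a mean of 263 FPKM (CPM per kilobase of exon). It had 2759.6, 2032, 2555 and 2322 CPM in hpCTL replicates 1 to 4 and 2301, 3865, 2032 and 2629 CPM in hp708 replicates 1 to 4. The groups overlapped, with hp708 replicate 2 above every other mouse and the 2 lowest mice, one of each group, at the same level. The log2 fold change of Mbp was 0.04 (SE 0.09, 95% interval -0.18 to 0.25, FDR 0.947) with 3 surrogate variables and 0.16 (SE 0.19, -0.26 to 0.58, FDR 0.999) without. It was 0.33 (FDR 0.300) without the library labelled hp708 replicate 1 and 0.04 without hp708 replicate 2.

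Mobp, a second basic protein of compact myelin with a mean of 92.9 FPKM, had 853, 636, 861 and 756 CPM in hpCTL and 676, 1206, 758 and 924 CPM in hp708. Its lowest value belonged to an hpCTL mouse and its highest to hp708 replicate 2, and the log2 fold change was 0.06 (SE 0.09, FDR 0.921). Mog, an immunoglobulin-like protein of the outermost myelin surface, had 65.8, 49, 61.9 and 59.3 CPM in hpCTL and 51.9, 96.8, 49.6 and 69.3 CPM in hp708. Here 64.6% of the exon bases overlap Zfp57 on the opposite strand, and the strand setting of the counting is not given in the sources used here. The groups overlapped again, and the log2 fold change of Mog was 0.01 (SE 0.10, FDR 0.985). Mag, an adhesion protein of the membrane that faces the axon, had 197, 153, 178 and 172 CPM in hpCTL and 162, 270, 139 and 234 CPM in hp708. Both extremes of Mag were hp708 mice, replicate 2 at the top and replicate 3 at the bottom, and the log2 fold change was 0.05 (SE 0.13, FDR 0.947). With the library labelled hp708 replicate 1 left out, the log2 fold changes were 0.41 for Mobp (FDR 0.198), 0.39 for Mog (FDR 0.197) and 0.41 for Mag (FDR 0.163). With hp708 replicate 2 left out they were 0.06, 0.04 and 0.12.

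Cnp, a phosphodiesterase that keeps cytoplasmic channels open in myelin, had 361, 273, 337 and 315 CPM in hpCTL and 285, 471, 255 and 355 CPM in hp708. The other hp708 values lay within or below the hpCTL range, and its log2 fold change was -0.04 (SE 0.10, FDR 0.941) with 3 surrogate variables and 0.09 (SE 0.18, FDR 0.999) without. Of its exon bases 16.5% overlap Dnajc7 on the opposite strand. Opalin, a membrane protein of mature oligodendrocytes, had 28.7, 16.9, 25.4 and 21.7 CPM in hpCTL and 20.4, 36.4, 19 and 29.2 CPM in hp708. The highest mouse of Opalin exceeded the lowest 2.15-fold, and the log2 fold change was 0.04 (SE 0.16, FDR 0.964). Leaving out the library labelled hp708 replicate 1 gave 0.27 for Cnp (FDR 0.346) and 0.48 for Opalin (FDR 0.218), and leaving out hp708 replicate 2 gave -0.01 and 0.12.

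Tmem88b, a membrane protein rich in oligodendrocytes and a carrier of an 8mer shown above, had the highest fitted log2 fold change of the 44 genes. It had 57.1, 53.8, 57.6 and 55.8 CPM in hpCTL and 57.3, 92.1, 49.8 and 73.9 CPM in hp708. The hpCTL mice lay close together and the hp708 mice on both sides of them, and the log2 fold change was 0.13 (SE 0.08, FDR 0.751), 0.41 (FDR 0.157) without the library labelled hp708 replicate 1 and 0.16 without hp708 replicate 2. Ppp1r14a, an inhibitor of myosin phosphatase, had the lowest fitted value. It had 12.5, 8.88, 9.31 and 9.76 CPM in hpCTL and 7.18, 11, 5.75 and 10.2 CPM in hp708, so that 2 hp708 mice lay below all hpCTL mice and 2 among them. The log2 fold change of Ppp1r14a was -0.35 (SE 0.18, 95% interval -0.76 to 0.07, unadjusted p = 0.0899, FDR 0.712, edgeR's quasi-likelihood test), and it was -0.01 without the library labelled hp708 replicate 1 and -0.26 without hp708 replicate 2. The other 7 genes of the group, Mal, Cldn11, Ermn, Tspan2, Pllp, Gpr37 and Hapln2, had log2 fold changes from -0.05 to 0.08, and their highest mouse exceeded their lowest 1.46- to 2.14-fold. Mal, the raft proteolipid with the site shown above, was at 0.08 (SE 0.09, FDR 0.875). Of the exon bases of Pllp 49.6% overlap another gene on the opposite strand.

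**Figure D2:**
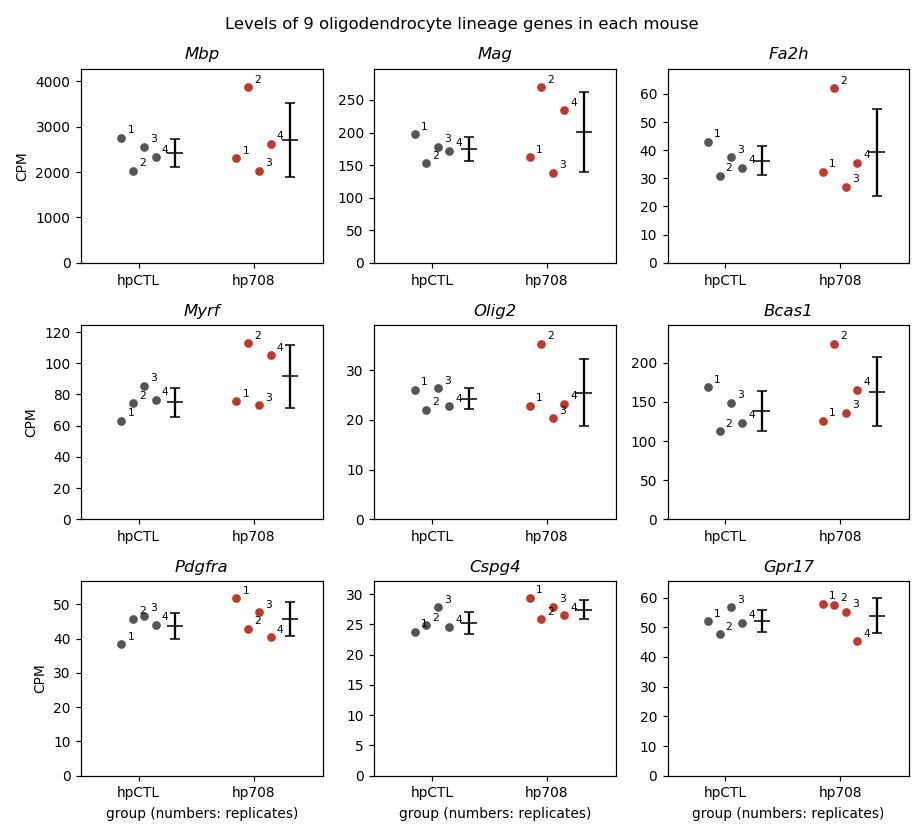
CPM (vertical axes, linear from 0) of 9 genes in each mouse, with hpCTL in grey and hp708 in red, replicate numbers beside the points, and the mean and SD of each group as bars (n = 4). In the mature genes hp708 replicate 2 is the highest point, as at 3865 CPM for Mbp, while in Pdgfra, Cspg4 and Gpr17 hp708 replicate 1 is the highest.

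Myelin lipid genes and gap junction genes had log2 fold changes above 0 for 3 of 5 with a median of 0.03. All 5 were above 0 without the library labelled hp708 replicate 1 (48.7% of all genes), with a median of 0.28. In that fit 2 had an unadjusted p-value below 0.05, each higher in hp708 (5.44% of all genes), with a lowest FDR of 0.219. Without hp708 replicate 2, 3 of 5 were above 0, and without surrogate variables as well 1 of 5 was. Fa2h hydroxylates the fatty acids of myelin galactolipids. It had 42.9, 31, 37.4 and 33.7 CPM in hpCTL and 32.3, 62, 27.1 and 35.6 CPM in hp708, where replicate 2 was 1.84 times the median of the other 7 mice, the highest such ratio of the 44 genes. The log2 fold change of Fa2h was -0.05 (SE 0.09, FDR 0.922) with 3 surrogate variables and 0.11 (SE 0.23, FDR 0.999) without. Ugt8a makes galactosylceramide, the main glycolipid of myelin, and had 49.7, 46, 54.2 and 50.5 CPM in hpCTL and 50.7, 81.3, 42.5 and 51.9 CPM in hp708. Apart from hp708 replicates 2 and 3 all Ugt8a values lay within the hpCTL range, and the log2 fold change was 0.03 (SE 0.08, FDR 0.945). When the library labelled hp708 replicate 1 was left out, the values were 0.27 for Fa2h (FDR 0.518) and 0.24 for Ugt8a (FDR 0.477), and without hp708 replicate 2 they were -0.08 and 0.00. Aspa, which cleaves N-acetylaspartate, and the connexins Gjb1 and Gjc3 had log2 fold changes from -0.07 to 0.10, with a lowest FDR of 0.83.

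Transcription factors of the lineage had log2 fold changes above 0 for 3 of 5, and 0 passed the FDR threshold. Without the library labelled hp708 replicate 1 all 5 were above 0 (48.7% of all genes) with a median of 0.21. In that fit 2 had an unadjusted p-value below 0.05, each higher in hp708 (5.44% of all genes), with a lowest FDR of 0.177. Without hp708 replicate 2, 3 of 5 were above 0, and without surrogate variables as well 1 of 5 was. Sox10, required for terminal differentiation, had 48, 45.1, 46.8 and 47 CPM in hpCTL and 45.5, 67.3, 41.9 and 49.1 CPM in hp708. Its hpCTL mice differed little (46.7 ± 1.20, SD, n = 4), hp708 mice lay on both sides, and the log2 fold change was 0.03 (SE 0.05, 95% interval -0.09 to 0.14, FDR 0.935), the smallest standard error of the named members. Myrf, the regulator that switches on myelin genes, had 63.2, 74.2, 85.6 and 76.6 CPM in hpCTL and 75.6, 113, 72.9 and 105 CPM in hp708. Myrf was above all hpCTL mice in hp708 replicates 2 and 4 and inside their range in replicates 1 and 3. The log2 fold change of Myrf was 0.13 (SE 0.07, 95% interval -0.03 to 0.30, unadjusted p = 0.0992, FDR 0.714, edgeR's quasi-likelihood test), and 0.29 (SE 0.15, FDR 0.999) without surrogate variables. It stayed between 0.04 and 0.39 when single libraries were left out, at 0.37 (FDR 0.177) without the library labelled hp708 replicate 1 and 0.17 without hp708 replicate 2. Sox10 was at 0.21 (FDR 0.360) and 0.00 without these libraries.

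Olig1 and Olig2, which specify the lineage and are present from precursors to mature cells, lie close together on chromosome 16 (GRCm39, 91066660 to 91068821 and 91019435 to 91025567, plus strand). Olig1 had 105, 79, 92.9 and 90.1 CPM in hpCTL and 82.1, 117, 82.7 and 87.5 CPM in hp708. Olig2 had 26, 22.1, 26.4 and 22.7 CPM in hpCTL and 22.8, 35.3, 20.3 and 23.3 CPM in hp708. For both genes replicate 2 was the only hp708 mouse above the hpCTL range, and both log2 fold changes were -0.04 (SE 0.07, FDR 0.916, for Olig1 and SE 0.09, FDR 0.939, for Olig2). Both were at 0.15 without the library labelled hp708 replicate 1 and at -0.06 and -0.08 without hp708 replicate 2. Nkx6-2, a transcriptional repressor present in mature oligodendrocytes and the remaining factor, was at 0.02 (SE 0.18, FDR 0.985). It had the widest spread of the 44 genes, 2.65-fold between the highest and the lowest mouse.

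The 14 iron, metabolic, signalling and cytoskeletal genes had log2 fold changes above 0 for 7 and below 0 for 7, with a median of -0.01, and 0 passed the FDR threshold. Without surrogate variables 12 of the 14 were above 0. A total of 13 were above 0 without the library labelled hp708 replicate 1 (48.7% of all genes), with a median of 0.20. In that fit 4 had an unadjusted p-value below 0.05, all higher in hp708 (5.44% of all genes), with a lowest FDR of 0.108. Without hp708 replicate 2, 8 were above 0, and without surrogate variables as well 2 were, with a median of -0.07. Ndrg1, a stress-responsive protein whose gene is mutated in a demyelinating neuropathy, had 131, 125, 125 and 118 CPM in hpCTL and 119, 157, 110 and 93.8 CPM in hp708. Its hp708 values surrounded the hpCTL values, and the log2 fold change was -0.10 (SE 0.08, FDR 0.818). Cryab, a small heat shock protein, had 137, 108, 111 and 107 CPM in hpCTL and 98.2, 179, 84.7 and 121 CPM in hp708. One mouse of each group, hpCTL replicate 1 and hp708 replicate 2, lay above the rest, and the log2 fold change of Cryab was -0.09 (SE 0.08, FDR 0.837) with 3 surrogate variables and 0.06 (SE 0.21, FDR 0.999) without. Ndrg1 was at -0.09 and Cryab at 0.23 (FDR 0.518) without the library labelled hp708 replicate 1, and without hp708 replicate 2 they were at -0.22 and -0.10. The other 12, Trf, Car2, Qdpr, Apod, Carns1, Adamts4, Gsn, Efhd1, Anln, Lpar1, Galnt6 and Il33, ran from -0.09 to 0.05. Among them the iron carrier transferrin (Trf, 60.1 FPKM) and the lipocalin Apod (75.6 FPKM) had the highest levels per length, and Gsn, the actin-severing protein with an 8mer, was at -0.05 (SE 0.16, FDR 0.961). Exon bases shared with a gene on the opposite strand made up 47.4% for Carns1, 26.4% for Apod and 19.8% for Cryab, counting the largest overlap of each. Carns1 also shared 25.8% with Gm50230 on the same strand, and Cryab 17.2% with Hspb2 on the opposite strand.

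Genes of precursors and newly formed oligodendrocytes were the only group in which all members (5 of 5) had a log2 fold change above 0 in both fits, with medians of 0.09 and 0.12, and 0 of 5 passed the FDR threshold. Without the library labelled hp708 replicate 1, 4 of 5 were above 0 with a median of 0.06. In that fit 1 of 5, Bcas1, had an unadjusted p-value below 0.05, higher in hp708 (5.44% of all genes), with an FDR of 0.189. Without hp708 replicate 2 all 5 were above 0. Pdgfra, the growth factor receptor that keeps precursors dividing, had 38.3, 45.7, 46.6 and 44 CPM in hpCTL and 51.8, 42.9, 47.7 and 40.4 CPM in hp708. Its highest mouse was the library labelled hp708 replicate 1, and hp708 replicate 2 lay within the hpCTL range. The log2 fold change of Pdgfra was 0.09 (SE 0.07, FDR 0.825), and -0.08 without the library labelled hp708 replicate 1 and 0.05 without hp708 replicate 2. Cspg4 had 23.8, 24.9, 27.9 and 24.6 CPM in hpCTL and 29.4, 25.9, 27.9 and 26.5 CPM in hp708. All 4 hp708 mice of Cspg4 thus exceeded 3 of the 4 hpCTL mice, with a log2 fold change of 0.13 (SE 0.08, 95% interval -0.05 to 0.31, FDR 0.74), and values of 0.06 and 0.13 without the same libraries.

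Gpr17, a receptor of cells that have begun to differentiate, had 52.1, 47.7, 56.7 and 51.5 CPM in hpCTL and 58, 57.4, 55.2 and 45.3 CPM in hp708. Both the highest and the lowest mouse of Gpr17 belonged to hp708, and its log2 fold change was 0.07 (SE 0.09, FDR 0.899). Bcas1, a marker of early myelinating cells, had 169, 112, 149 and 124 CPM in hpCTL and 126, 224, 136 and 166 CPM in hp708. Enpp6, a phospholipid-cleaving enzyme of newly formed oligodendrocytes, had 8.25, 5.38, 9.19 and 7.81 CPM in hpCTL and 9.1, 11.3, 5.67 and 8.34 CPM in hp708. For these last genes hp708 replicate 2 was again the highest mouse and hpCTL replicate 2 the lowest, as for Mbp. The log2 fold change was 0.12 for Bcas1 (SE 0.09, FDR 0.792) and 0.08 for Enpp6 (SE 0.22, FDR 0.95), the gene with the fewest reads, with at least 123 counts in every library. The values were 0.00 for Gpr17, 0.47 for Bcas1 (FDR 0.189) and 0.28 for Enpp6 (FDR 0.641) without the library labelled hp708 replicate 1, and without hp708 replicate 2 they were 0.01, 0.12 and 0.18.

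The spread over single mice was wide for most genes, and the highest of the 8 mice exceeded the lowest by a median of 1.89-fold over the 44 genes (1.24- to 2.65-fold). The 44 genes together took 0.725%, 0.577%, 0.703% and 0.659% of all counts in hpCTL replicates 1 to 4 and 0.623%, 1.03%, 0.567% and 0.734% in hp708 replicates 1 to 4. Both the highest and the lowest share were thus hp708 mice. On the log2 CPM scale their mean level per mouse reached 5.99, 5.73, 5.98 and 5.90 for hpCTL and 5.83, 6.45, 5.67 and 6.05 for hp708. Replicate 2 of hp708 was the highest of the 8 mice for 39 of the 44 genes, whereas it was the highest for 15.5% of all genes tested. Replicate 3 of hp708 was the lowest for 23 of the 44 (13.9% of all genes), and hpCTL replicate 2 for 13 (7.22%). The spread within groups, as the SD of log2 CPM, had a median of 0.30 for the 44 genes and 0.18 for all genes tested. Among the 11316 tested genes with mean levels within the range of the members it was 0.14.

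**Figure D3:**
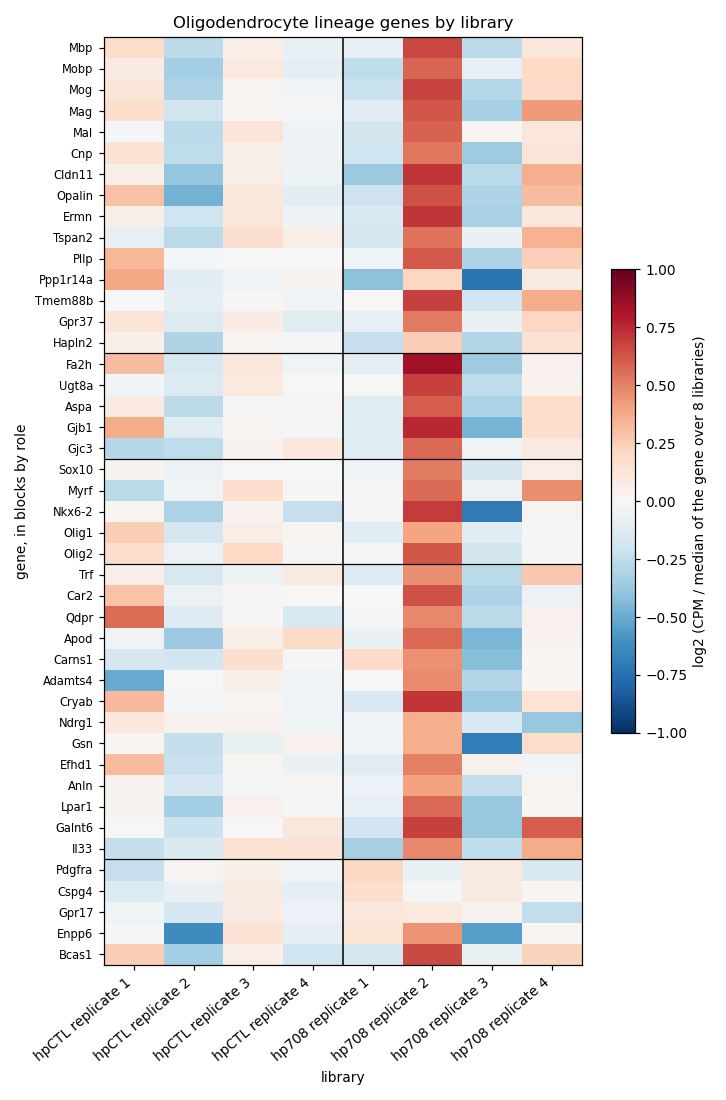
Heat map of the 44 genes (rows, in blocks by role) in the 8 libraries (columns, hpCTL left of the vertical line), with colour for the log2 ratio of CPM to the median of the gene over the libraries. The column of hp708 replicate 2 is red for all rows except Pdgfra and Cspg4 (its median log2 ratio is 0.57), and those of hp708 replicate 3 (-0.27) and hpCTL replicate 2 (-0.18) are mostly blue.

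How far hp708 replicate 2 stood above the other mice differed by role, which is a description without a test. Its level over the median of the other 7 had a median of 1.61 for myelin lipid and gap junction genes, 1.57 for compact and structural myelin, 1.49 for transcription factors, 1.44 for the metabolic group and 1.10 for genes of precursors and newly formed oligodendrocytes. In the last group Pdgfra and Cspg4 were at 0.937 and 0.975 and Gpr17 at 1.10, whereas Enpp6 was at 1.38 and Bcas1 at 1.65. Qdpr, which recycles tetrahydrobiopterin, and Ppp1r14a were the 2 mature genes with their highest value in hpCTL replicate 1, and Qdpr was picked for mention with its values known (251 CPM there against 152 to 172 CPM in the other hpCTL mice). Within a library, Mbp exceeded Pdgfra 72.0-, 44.4-, 54.9- and 52.7-fold in hpCTL and 44.5-, 90.2-, 42.6- and 65.1-fold in hp708. The ratio of Mag to Mog, both mature genes, stayed between 2.79 and 3.38 over the same mice. The ratio of Mbp to Pdgfra thus varied up to 2.12-fold between mice and that of Mag to Mog 1.21-fold. Mag and Mog do not stand for all pairs of mature genes. In hpCTL replicate 1 Qdpr had its highest value of all mice (251 CPM) and Myrf its lowest (63.2 CPM). In hp708 replicate 2 Qdpr was at 237 CPM and Myrf at 113 CPM.

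Further genes of the lineage that are not among the 44 were read from 2 lists. Of 21 other genes of mature oligodendrocytes 0 passed an FDR of 0.05 and 0 had an unadjusted p-value below 0.05, with a lowest FDR of 0.668. Their log2 fold changes ran from -0.78 to 0.11, above 0 for 9 and below 0 for 12. Without the library labelled hp708 replicate 1 they were above 0 for 19 with a median of 0.22. In that fit 5 of the 21 had an unadjusted p-value below 0.05, all higher in hp708 (5.44% of all genes), with a lowest FDR of 0.139. Without hp708 replicate 2 the log2 fold changes were above 0 for 11. In 17 of the 21 hp708 replicate 2 was the highest mouse, as in most of the mature genes above.

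Of 15 other genes of precursors and newly formed cells 0 passed an FDR of 0.05, and 2 had an unadjusted p-value below 0.05, against 7.7% of all genes. Tnr, an extracellular matrix glycoprotein that interneurons make as well, had 121, 208, 227 and 212 CPM in hpCTL and 233, 172, 278 and 226 CPM in hp708. Xylt1, which starts the glycosaminoglycan chains of proteoglycans, had 35.5, 69.2, 58.5 and 69.2 CPM in hpCTL and 76.2, 43.8, 65.3 and 66.5 CPM in hp708. In both genes hpCTL replicate 1 and hp708 replicate 2 were the lowest of their groups. Of the 44 genes, by contrast, 39 were highest of all mice in hp708 replicate 2. In hpCTL replicate 1, 30 of the 44 lay above their median, but Myrf and Il33 among others were lowest of hpCTL there. The log2 fold changes were 0.25 for Tnr (SE 0.09, 95% interval 0.04 to 0.46, FDR 0.594) and 0.15 for Xylt1 (SE 0.06, 0.00 to 0.30, FDR 0.646). Without the library labelled hp708 replicate 1 they were 0.04 and -0.16, and without hp708 replicate 2 they were 0.23 and 0.22.

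Marker lists of other cells and regions were measured in the same libraries. The 4 genes of ependyma were all highest in hp708 replicate 2, with a summed level of 59.0 CPM there against 21.2 to 40.5 CPM in hpCTL and 31.3 to 36.9 CPM in the other hp708 mice. The 6 genes of choroid plexus epithelium were likewise all highest in that library, but their sum ranged from 52.7 to 2050.0 CPM in hpCTL and from 105 to 4396 CPM in hp708, without the order of the myelin genes. The sum of 5 thalamic genes was 144 CPM in hp708 replicate 2 and 58.8 to 86.4 CPM in all other mice, with 3 of 5 genes highest there. For CA3 pyramidal neurons 3 of 4 genes were highest there, and the mean log2 CPM was 4.24 against 3.32 to 3.88, while the summed levels ranged from 67.8 to 115 CPM in hpCTL and from 82.1 to 121 CPM in hp708. Schwann cell genes, which would mark peripheral myelin, summed to 3.4 to 8.0 CPM in all mice, and none was at 0 in every library. Astrocyte genes summed to 4591 to 5015 CPM in hpCTL and 4803 to 5640.3 CPM in hp708. Other lists ordered the libraries in part differently from most mature genes. The 8 microglial genes summed to 776, 907, 1074 and 1046 CPM in hpCTL and 641, 1022, 721 and 1131 CPM in hp708, and 9 genes of the interferon response to 184, 393, 431 and 479 CPM in hpCTL and 171, 424, 204 and 412 CPM in hp708. In hp708 both sums were low in replicates 1 and 3 and high in replicates 2 and 4. The mean log2 CPM of the 44 genes was split in the same way (5.83, 6.45, 5.67 and 6.05 in hp708 replicates 1 to 4). In hpCTL both sums were lowest in replicate 1, as were Myrf (63.2 CPM) and Il33 (58.4 CPM). By contrast, Mag (197 CPM) and the mean of the 44 genes (5.99) were highest of hpCTL in that replicate. The 4 genes of the subiculum summed to 97.4, 157, 148 and 189 CPM in hpCTL and 165.5, 89.2, 95.4 and 111 CPM in hp708, with hpCTL replicate 1 and hp708 replicate 2 lowest in their groups, as for Tnr and Xylt1. The 4 genes of dentate granule cells summed to 162 to 221 CPM in hpCTL and 167 to 284 CPM in hp708, those of CA1 to 519 to 651 and 530 to 594 CPM, those of endothelium to 237 to 282 and 241 to 263 CPM, mural genes to 208 to 244 and 182 to 244 CPM, meningeal genes to 122 to 267 and 92.7 to 320 CPM, and striatal genes to 19.2 to 28.1 and 16.2 to 24.4 CPM. The part of these other cells and regions, or of the dissection, in the levels of the oligodendrocyte genes was not tested.

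**Figure D4:**
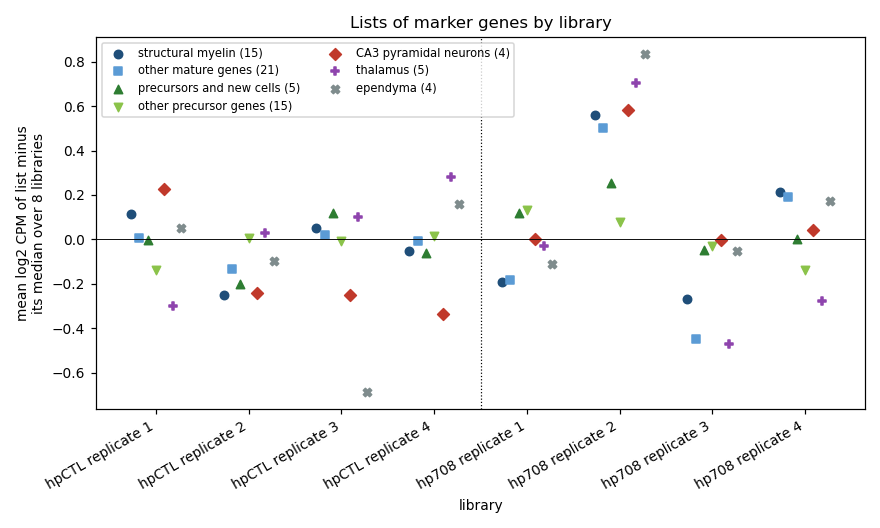
Mean log2 CPM of 7 marker lists in each library, minus the median of the list over the 8 libraries (vertical axis), with the number of genes per list in the legend. In hp708 replicate 2 the mature oligodendrocyte lists lie high together with thalamus, CA3 and ependyma. Structural myelin is at a mean log2 CPM of 7.23 there, against 6.41 to 6.89 in the other libraries. The precursor lists lie lower, although the list of precursors and new cells is also highest in that library (5.46, against 5.00 to 5.32).

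Canonical seed matches of miR-708-5p (8mer, 7mer-m8 or 7mer-A1) were present in 14 of the 44 genes (31.8%) when the longest 3'UTR of each was searched, against 3927 of the 14808 tested genes with a 3'UTR (26.5%). These were Mobp, Mog, Mal, Cnp, Ppp1r14a, Tmem88b, Gjc3, Sox10, Qdpr, Carns1, Gsn, Il33, Cspg4 and Gpr17. Their log2 fold changes had a median of 0.04, with 9 above and 5 below 0. For the 30 genes without a match the median was 0.02, with 19 above and 11 below 0. Without surrogate variables the medians were 0.12 and 0.15. All tested genes with a match had a median of 0.00 and those without one -0.01. Among the matched oligodendrocyte genes, the 8mer carriers Tmem88b and Gsn lay on either side of 0, at 0.13 and -0.05.

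The promoters of the 44 genes were also searched, on both strands, for the letters that lineage transcription factors read. Any link of these letters to the levels in single mice was not tested. RefSeq promoter windows (GRCm38.p6, 250 bases before to 50 after a gene start) were given for 31 of the 44 genes, 43 windows in all, of which those of alternative starts of a gene can overlap. CTGGCAC, a form of the Myrf recognition sequence, was in 6 of the 43 windows (14.0%), from 5 genes, and in 5.01% of all 32851 windows. The other form, CTGGTAC, was in 2.33% and 2.24%. The letters ACAAAG and ACAATG, which Sox proteins can bind, were in 27.9% and 18.6% of the windows of the 44 genes against 18.7% and 12.6% of all. CAGCTG, an E-box read by Olig2 among others, was in 16.3% of both. Windows of 30 bases around the Myrf letters (in capitals, on the strand of the gene) are shown for 3 myelin genes whose levels are given above.
Mag, chr7:30914913-30914942, minus strand: gcaggcggcccCTGGCACccagggggcaga
Cnp, chr11:100574847-100574876, plus strand: accgctgcttcCTGGCACtcaggtttccat
Mog, chr17:37023463-37023492, minus strand: agaaatgcccaGTACCAGgcagccactgct
In Mag and Cnp the letters begin 68 and 81 bases before the gene start, and in Mog they lie on the other strand 83 bases before it. A match of letters is a description of the sequence and not evidence of binding. Hapln2, Lpar1 and Opalin also held CTGGCAC, and the 6 genes with either form had log2 fold changes from -0.05 to 0.05.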

How the data were processed

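PolyA-RNA was sequenced from the hippocampi of 4 hpCTL and 4 hp708 mice. The authors mapped reads to GRCm39 with STAR 2.7.8a, counted them per gene with featureCounts 1.6.4 and deposited raw counts without normalization. Their methods name edgeR 3.32.1 with likelihood ratio tests, while a legend of the study names its quasi-likelihood model, which was used here with the other as an alternative. Strand and multi-mapping settings are not given in the sources used here. Samples were grouped by their labels, and all 8 columns were matched by animal number. Of the 40659 gene identifiers 39641 were named from the GENCODE annotation of GRCm39 in a later release, where Tmem88b is called Tmem278.

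From the deposited counts, genes were kept by filterByExpr, and edgeR 4.0.16 under R 4.3.3 was used for testing (quasi-likelihood as in edgeR 3, TMM, Benjamini-Hochberg), with 3 surrogate variables from svaseq (sva 3.50.0). CPM used TMM-scaled library sizes, log2 CPM a prior count of 2, and FPKM the union of annotated exons. Standard errors and 95% intervals came from the quasi-likelihood fit. The p-values without surrogate variables measure the spread between these mice, and those with 3 surrogate variables only the spread left after them. For Mbp the standard error was 0.09 with them and 0.19 without. Few degrees of freedom remain with 3 surrogate variables and a library left out. Without the library labelled hp708 replicate 1, 12.2% of all genes had an unadjusted p-value below 0.05 in that fit, in either direction. No library was a copy of another (chi-square per degree of freedom 10 to 46.2 within groups). On simulated counts of 17043 genes for this comparison, the test recovered 105 of 195 changed genes and 97 of 136 changed at least 2-fold, and 11 calls were false. As alternatives, the number of surrogate variables, the test (DESeq2 1.42.0 among them), normalization, the filter, the block and the libraries were varied.

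The members and lists were chosen with earlier results of these data known. Genes given in every mouse are 17 myelin, lipid, transcription factor and precursor genes, the 3 members with the highest and the 3 with the lowest log2 fold change, any member with an unadjusted p below 0.05 or groups that do not overlap (none), and genes of the further lists with an unadjusted p below 0.05. One gene of these lists is not reported here. Seed matches were searched in the longest annotated 3'UTR per gene.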

Additional observations from a re-analysis of the deposited data

Results flagged for a closer look

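In 5 of 92 groups of 4 libraries (chance gives about 1 in 20, here 4.6) one library lay far from the other 3. For Cryab it was hpCTL replicate 1, with 137 CPM against 107 to 111 CPM in the other hpCTL mice. For Olig1 it was hp708 replicate 2, with 117 CPM against 82.1 to 87.5 CPM. For Tnr it was hpCTL replicate 1, with 121 CPM against 208 to 227 CPM. The 15 further genes of precursors and newly formed oligodendrocytes had a mean log2 CPM of 3.63 in hpCTL replicate 1 against 3.77 to 3.79, and the 4 CA3 genes one of 4.24 in hp708 replicate 2 against 3.65 to 3.70.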

How the results depend on the processing

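In each of the 26 alternatives, 0 of the 44 oligodendrocyte genes and 0 of the 36 further ones passed an FDR of 0.05. At that FDR, the genes called among all tested numbered 0 without surrogate variables, with 1 surrogate variable, or when every library needed at least 10 counts, 2 with DESeq2 without surrogate variables, 3 with the quasi-likelihood of edgeR 4, 12 without a filter, 96 with DESeq2 and 3 surrogate variables, 127 in the likelihood ratio test, and 0 to 56 when a library was left out (56 without hp708 replicate 1). The median log2 fold change of the 44 genes ranged from -0.08 to 0.27 when a library was left out. Of 230 values of the 23 named genes under the other alternatives 199 kept their direction and 31 changed it, and of 368 with a library left out 74 changed it. The cause of these changes was not tested.

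Log2 fold changes that changed direction were, without surrogate variables, 0.086 for Cnp, 0.060 for Cryab, 0.11 for Fa2h, 0.0071 for Olig1 and 0.065 for Olig2. With 1 surrogate variable they were 0.045 for Cnp, 0.019 for Cryab, 0.072 for Fa2h, 0.00017 for Olig1 and 0.041 for Olig2. With DESeq2 without surrogate variables they were 0.092 for Cnp, 0.066 for Cryab, 0.12 for Fa2h, 0.013 for Olig1 and 0.071 for Olig2. With at least 10 counts they were 0.24 for Cnp, 0.19 for Cryab, 0.26 for Fa2h, 0.12 for Olig1, 0.14 for Olig2, -0.025 for Pdgfra and -0.0097 for Xylt1. Without a filter they were -0.029 for Mbp, -0.047 for Mog, -0.019 for Opalin, -0.019 for Sox10 and -0.021 for Ugt8a.

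Replicate numbers did not pair the mice (correlations of deviations -0.041 to 0.018). With the replicate block 1 of all genes and 0 of the 44 were called, the median of the 44 was 0.10, and the values that changed direction were 0.051 for Cnp, 0.0078 for Cryab, 0.047 for Fa2h and 0.035 for Olig2. With a library left out, log2 fold changes ranged from -0.012 to 0.47 for Bcas1, -0.15 to 0.27 for Cnp, -0.19 to 0.23 for Cryab, -0.086 to 0.34 for Enpp6, -0.20 to 0.27 for Fa2h, -0.044 to 0.41 for Mag, -0.079 to 0.33 for Mbp, -0.068 to 0.41 for Mobp, -0.11 to 0.39 for Mog, -0.22 to 0.046 for Ndrg1, -0.14 to 0.15 for Olig1, -0.14 to 0.16 for Olig2, -0.13 to 0.48 for Opalin, -0.076 to 0.14 for Pdgfra, -0.039 to 0.21 for Sox10, -0.051 to 0.29 for Ugt8a and -0.16 to 0.31 for Xylt1.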
